A study of Rattus norvegicus with 17 samples.

Results

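C-type natriuretic peptide (CNP, gene Nppc) and the natriuretic peptide receptors (Npr1, Npr2 and Npr3) were followed in rat gubernacula cultured with insulin-like 3 (Insl3). The members were all probe sets that the platform table gives to exactly 1 of these 4 genes, out of 14218 genes with such a probe set. Each gene had 1 probe set. The set was chosen by the measured rise of the Nppc signal with Insl3 in these same arrays, so the values of Nppc are given as a description, with differences and standard errors but without a test. The receptors were included as receptors of the peptide.

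The gubernaculum is the fetal ligament that connects the testis to the abdominal wall, and Insl3 is a hormone of fetal Leydig cells that acts on it. Bulbs came from male Long Evans rat fetuses of gestational day 17, with 2 bulbs pooled per replicate, and were kept for 24 h in hormone-free medium containing charcoal-stripped serum. The following 24 h were without hormone (control, 6 arrays), with 10 nM Insl3 (3 arrays used, 2 set aside by the submitters) or with 100 nM Insl3 (6 arrays). All cultures, controls included, shared the medium, the serum and the same time in culture. The labels call the replicates biological and do not say which came from 1 litter. Values are log2 GCRMA values, a background-corrected and normalized array signal on which 1 unit is a doubling. Levels of different probe sets cannot be compared with each other. The set-aside arrays had cRNA yields of 25.66 and 33.68 µg, the RNA integrity number was 10 wherever determined, and the share of features at the floor of 2.11, the lowest value listed, ran from 29.6% to 32.2% over the arrays. In earlier results of these data replicates 1, 2 and 6 stood apart from replicates 3, 4 and 5 in the control and 100 nM cultures, a split for which the labels name no batch, so values within each set are given too. At 10 nM the arrays used are replicates 1, 2 and 3, so the first set has only replicates 1 and 2 there. Each set has fewer arrays than the whole, so a call can be lost without a smaller difference.

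CNP is a locally acting peptide that is cut from a larger precursor. It binds Npr2, a receptor whose intracellular part is a guanylyl cyclase and makes cyclic GMP. Npr1 is the corresponding cyclase receptor for the atrial and brain peptides, and Npr3 is a receptor that takes up and clears natriuretic peptides. The pathway is best known for growth plate cartilage and for the ovarian follicle.

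The bases before the start of Nppc are shown because Nppc was the member whose signal differed most between the groups. They are from RefSeq, build GRCr8, chr9:94772187-94772336, minus strand, and are the 150 bases just before the start site, written 5′ to 3′. Capitals mark the matches to TGACATCA and TATAAA.

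Nppc: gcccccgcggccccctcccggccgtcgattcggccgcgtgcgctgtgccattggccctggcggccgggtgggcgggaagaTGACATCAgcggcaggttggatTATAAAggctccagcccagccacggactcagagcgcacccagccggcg

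TGACATCA lay 70 to 63 bases before the start and TATAAA 48 to 43 bases before it, without overlap. TGACATCA differs by 1 base from TGACGTCA, the cyclic AMP response element, which was not found in the window. Both strands of the 250 bases before each start were searched in 33469 promoters. TGACGTCA was present in 1.59% of them, TGACATCA in 3.8% and TATAAA in 12.9%. The latter 2 motifs were looked for after the window had been read, and a match describes letters and no binding site.

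Nppc signal was low in control cultures and higher at each dose. In the 6 controls the lowest value was 3.61, the median 3.65 and the highest 3.77. The 3 arrays at 10 nM read 6.68, 6.53 and 5.83. The 6 arrays at 100 nM had a lowest value of 7.76, a median of 8.22 and a highest of 9.07. Among the arrays used, no array of any group overlapped another group, in the order control, 10 nM, 100 nM. The set-aside 10 nM replicate 5 read 8.03, within the 100 nM range.

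The lowest 10 nM array lay 2.06 above the highest control, and the lowest 100 nM array lay 1.08 above the highest 10 nM array. Group means were 3.67 ± 0.06 (SD, n = 6), 6.35 ± 0.45 (SD, n = 3) and 8.34 ± 0.50 (SD, n = 6). The difference between 100 nM and control was 4.67 (SE 0.20), which is 25.4-fold. Between 10 nM and control it was 2.68 (SE 0.25), or 6.39-fold, and between the doses 1.99 (SE 0.25), or 3.97-fold. At 10 nM Nppc had reached 57.3% of its log2 difference at 100 nM. The difference at 100 nM was 4.63 within replicates 1, 2 and 6 and 4.70 within replicates 3, 4 and 5. These differences chose the gene, and nothing is read from them beyond their size.

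**Figure D1:**
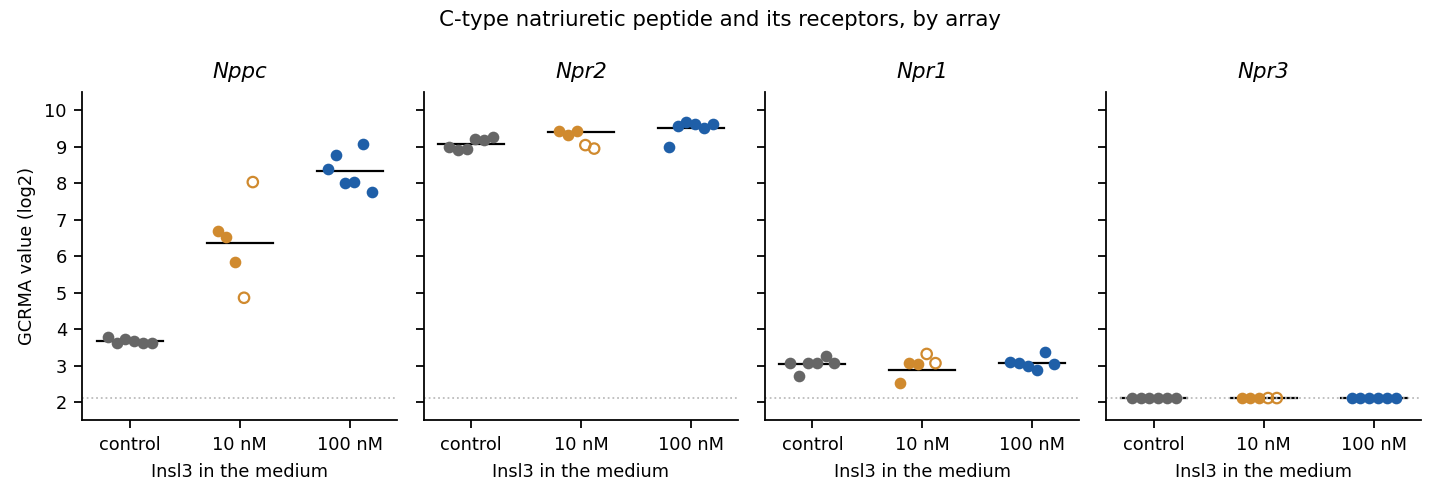
Log2 GCRMA value of each of the 4 members (vertical axis) in each array, by group. Filled points are the arrays used, open points the 2 set-aside 10 nM arrays, black bars the group means of the arrays used, and the dotted line the floor of 2.11. Over the arrays used, Nppc is ordered by dose without overlap, 5 of 6 Npr2 values at 100 nM lie above all controls, and Npr1 values overlap. The open Nppc point at 8.03 lies within the 100 nM range. Npr3 lies at the floor throughout.

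Across all features tested with limma and Benjamini-Hochberg adjustment at 0.05, 10.9% were called at 100 nM against control, 6.51% higher and 4.39% lower. At 10 nM against control 10.6% were called, 4.88% higher and 5.70% lower, and between the doses 1.43% were called. Groups did not overlap for 4.96% of features at 100 nM and for 17.0% at 10 nM. All arrays used were in the order control, 10 nM, 100 nM for 0.132% of features, and Nppc, chosen for its rise, was among them. Of the receptors tested, Npr2 was called at 100 nM and Npr1 was not, and neither was called at 10 nM or between the doses. Nppc is not counted, because the rule used these contrasts.

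Npr2, the cyclase receptor for CNP, rose at 100 nM by a small amount. Control arrays had a lowest value of 8.90, a median of 9.09 and a highest of 9.27. The 10 nM arrays read 9.42, 9.32 and 9.42. The 100 nM arrays had a lowest value of 8.99, a median of 9.59 and a highest of 9.67. All 3 arrays at 10 nM and 5 of 6 at 100 nM lay above every control, and 100 nM replicate 1 lay among the controls. The lowest 10 nM array was 0.05 above the highest control. In either direction, 17.0% of all features tested did not overlap at 10 nM. The set-aside 10 nM replicates 4 and 5 read 9.04 and 8.94, within the control range.

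The difference at 100 nM was 0.42 (SE 0.11), or 1.33-fold, with a 95% interval from 1.13-fold to 1.57-fold and a limma adjusted p of 0.0275. At 10 nM it was 0.31 (SE 0.14; adjusted p = 0.181), and between the doses 0.11 (SE 0.14), with a 95% interval from -0.18 to 0.40 (adjusted p = 0.830). Leaving out 1 array at a time ended the call at 100 nM in 7 of 15 fits, those without control replicate 1, 2 or 3 or without 100 nM replicate 2, 3, 4 or 6, with adjusted p up to 0.0601. Without 100 nM replicate 1 the difference was 0.52 (adjusted p = 0.000703), and the 10 nM difference then passed as well (adjusted p = 0.0356). The call was also lost when only the groups compared were fitted (adjusted p = 0.0521), without the filter on low values (0.0565), with the set-aside arrays (0.0634) and within replicates 1, 2 and 6 (0.34, adjusted p = 0.425), while it held within replicates 3, 4 and 5 (0.49, adjusted p = 0.0429). In bulk cultures, more cells of a type and more RNA per cell cannot be told apart.

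Npr1, the cyclase receptor for the atrial and brain peptides, was read close to background. Controls had a lowest value of 2.71, a median of 3.07 and a highest of 3.27, the 10 nM arrays read 2.53, 3.07 and 3.04, and the 100 nM arrays had a lowest value of 2.87, a median of 3.06 and a highest of 3.38. The groups overlapped. The difference from control was 0.03 at 100 nM, with a 95% interval from -0.21 to 0.28 (adjusted p = 0.887), and -0.16 at 10 nM, with an interval from -0.46 to 0.14 (adjusted p = 0.525). The same value, 3.07 when rounded, was listed on 6 of 17 arrays.

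Npr3, the clearance receptor, was listed at the floor of 2.11 on 17 of 17 arrays. It had no value above the filter and was not tested. Whether the transcript was absent or its probe set did not read it cannot be told apart.

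The other genes of the pathway were taken from lists of 53 genes, written with earlier results of these data known, of which 46 were on the array, 25 stayed below the filter and 21 were tested. At 100 nM 4 of the 21 rose, 2 fell and 15 were not called, with a median difference of 0.10 against -0.00 over all features tested. At 10 nM 3 rose, 1 fell and 17 were not called, with a median of 0.25 against 0.03. Between the doses none of the 21 was called. The shares called over all features are those given above.

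Of the other ligands, the atrial and brain peptide genes Nppa and Nppb stayed below the filter. Among genes that process or break down natriuretic peptides, 5 were tested, 3 rose at 100 nM and 2 at 10 nM. Over all features tested, 6.51% were called higher at 100 nM and 4.88% at 10 nM. The list was written with earlier results known, so its counts are a description. Mme encodes neprilysin, a cell surface peptidase that cleaves natriuretic peptides. Its controls read from 8.75 to 9.38 with a median of 9.10, the 10 nM arrays from 10.07 to 10.34, and the 100 nM arrays from 10.12 to 10.70 with a median of 10.54. Every treated array lay above every control.

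Mme rose by 1.38 (SE 0.13) at 100 nM, which is 2.61-fold (adjusted p = 2.07e-05), and by 1.08 (SE 0.16) at 10 nM, which is 2.11-fold (adjusted p = 0.000949). Ece1, endothelin converting enzyme and another membrane peptidase, read from 7.53 to 8.25 in controls, from 8.48 to 8.84 at 10 nM and from 8.31 to 8.65 at 100 nM, again without overlap with the controls. It rose 1.45-fold at 100 nM (adjusted p = 0.00943) and 1.64-fold at 10 nM (adjusted p = 0.00517). With the set-aside arrays included both Ece1 calls were lost (adjusted p = 0.169 and 0.476). Both were also lost within replicates 1, 2 and 6 (0.235 and 0.150), where 10 nM had only replicates 1 and 2. Within replicates 3, 4 and 5 the 100 nM call was lost (0.0648), with a difference of 0.71 against 0.54 over all arrays used. It was also lost with the mean erythroid marker level as a covariate (0.230). Ide, the insulin-degrading enzyme, rose by 0.30 at 100 nM (adjusted p = 0.0319), and its groups overlapped. That call was lost in 7 of 15 leave-one-out fits and in 6 of 12 other alternatives (adjusted p up to 0.677), and 2 further Ide probe sets differed by -0.04 and -0.06. Furin, a protease that cuts the CNP precursor, differed by 0.13 at 100 nM (adjusted p = 0.406) and by 0.29 at 10 nM (adjusted p = 0.126).

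**Figure D2:**
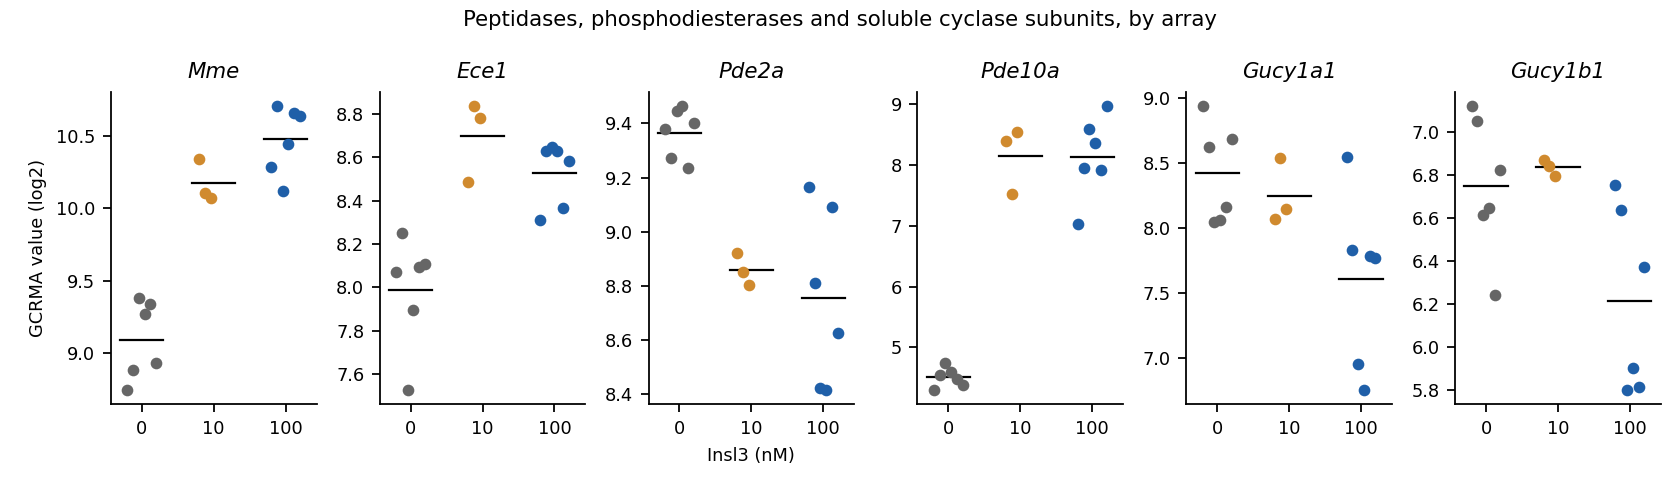
Log2 GCRMA value (vertical axis, scaled separately in each panel and not starting at 0) by Insl3 dose for 6 pathway genes. Points are arrays and black bars group means. Mme, Ece1 and Pde10a lie above all controls at both doses, Pde2a lies below all controls at both doses, and Gucy1a1 and Gucy1b1 overlap.

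The soluble guanylyl cyclase, which makes cyclic GMP in response to nitric oxide, is built from the products of Gucy1a1 and Gucy1b1. At 100 nM Gucy1a1 differed by -0.82 (SE 0.27; adjusted p = 0.0690) and Gucy1b1 by -0.53 (SE 0.19; adjusted p = 0.0877), and neither passed. For Gucy1a1, 5 of 6 arrays at 100 nM lay below every control. Without 100 nM replicate 1 both passed, with differences of -1.01 and -0.64. Both also passed with a term for the 2 sets of replicates (adjusted p = 0.0148 and 0.00797) and with the erythroid level as a covariate (-1.83 and -1.18), and Gucy1b1 passed within replicates 3, 4 and 5 (0.0377). A second, dimmer probe set of each gene differed by -0.25 (Gucy1a1) and -0.06 (Gucy1b1) at 100 nM. The other 7 cyclase genes and the nitric oxide synthases Nos1, Nos2 and Nos3 stayed below the filter.

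Among the effectors of cyclic GMP, Vasp, an actin regulator that cyclic nucleotide kinases phosphorylate, fell by 0.24 at 100 nM (adjusted p = 0.0323), with all 6 arrays below all controls. That call was lost in 6 of 15 leave-one-out fits and in 4 of 12 other alternatives (adjusted p up to 0.418). The other 5 tested effectors were not called at either dose. The kinase gene Prkg2 stayed below the filter. Prkg1, the other kinase gene of the list, had no probe set given to it alone and was not measured here.

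Phosphodiesterases break cyclic nucleotides down, and 6 genes of the list of cyclic GMP phosphodiesterase genes were tested. Another 8 stayed below the filter: Pde1a, Pde1c, Pde3a, Pde5a, Pde6a, Pde6b, Pde6g and Pde6h. Pde6c and Pde11a had no probe set given to them alone. Pde10a, which acts on both cyclic AMP and cyclic GMP, read from 4.30 to 4.74 in controls, from 7.51 to 8.54 at 10 nM and from 7.02 to 8.97 at 100 nM. It rose 12.4-fold at 100 nM and 12.5-fold at 10 nM, and the doses differed by -0.02 (95% interval -0.73 to 0.70). A second Pde10a probe set differed by 3.60 and 3.69. Whether this dose step differs from that of Nppc was not tested. Pde2a, an enzyme that cyclic GMP stimulates, read from 9.24 to 9.46 in controls, from 8.80 to 8.92 at 10 nM and from 8.42 to 9.16 at 100 nM. Pde2a fell 1.53-fold at 100 nM (adjusted p = 0.00632) and 1.42-fold at 10 nM (adjusted p = 0.0449), the latter call being lost in 11 of 15 leave-one-out fits. The 100 nM call was lost within replicates 1, 2 and 6 (-0.48, adjusted p = 0.160) and within replicates 3, 4 and 5 (-0.74, adjusted p = 0.0910). Over all arrays used the difference was -0.61. Pde3b and Pde9a each differed by 0.37 at 100 nM and were not called (adjusted p = 0.0953 and 0.0723), nor were Pde6d at 0.10 and Pde1b at -0.28. Pde3b and Pde9a passed with a term for the 2 sets of replicates (adjusted p = 0.0431 for each) and within replicates 3, 4 and 5 (0.0302 and 0.0458), and Pde9a passed without control replicate 6 or without 100 nM replicate 1.

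**Figure D3:**
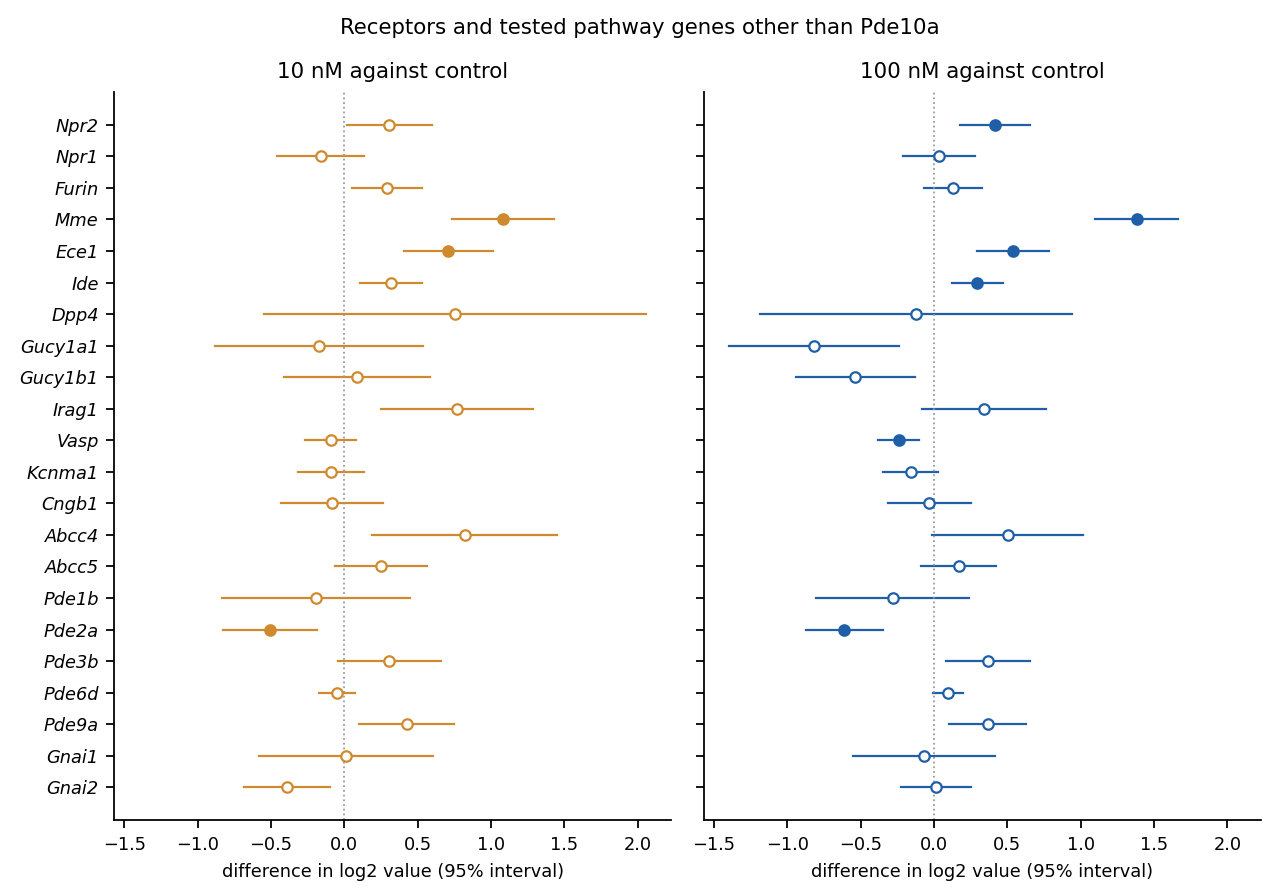
Difference from control in log2 value (horizontal axis) with its 95% interval, at 10 nM (left) and 100 nM (right), for Npr2, Npr1 and the tested pathway genes other than Pde10a. Filled points passed the adjusted threshold. Pde10a, at 3.65 and 3.63, was left out because of its size.

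The genes nearest to Nppc in profile were ranked by the root mean square of the log2 difference from Nppc over the 15 arrays, after each gene was centred on its control mean. They were Col8a1 (0.63), Inhbb (0.64), Wnt2 (0.70), Gda (0.76), Greb1 (0.78) and Il1rl1 (0.99), with Chrdl2 next at 1.04. Col8a1 encodes a short-chain collagen, Inhbb an activin and inhibin subunit, Wnt2 a secreted signalling protein, Gda guanine deaminase, Greb1 a gene known for its response to estrogen, and Il1rl1 a receptor of the interleukin receptor family. For each gene the probe set with the nearest profile was used, which for Gda was not the brightest. The genes were picked for their likeness, so their values are a description.

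The share of the 100 nM log2 difference already present at 10 nM was 57.8% for Inhbb and 57.3% for Nppc. It was 72.5% for Greb1, 73.0% for Il1rl1, 79.8% for Col8a1, 86.6% for Wnt2 and 94.4% for Gda. The 10 nM arrays of Inhbb lay from 1.46 to 3.34 above its control mean, so its share is imprecise. All 6 controls of Wnt2, 3 of those of Gda and 2 of those of Col8a1 lay at or below the filter, where differences are compressed. None of these 6 genes had all arrays used in the order control, 10 nM, 100 nM without overlap. Nppc had that order, but it was chosen for its rise with Insl3, so nothing is read from the contrast. With the set-aside 10 nM replicate 5, at 8.03, the Nppc values at 10 nM and 100 nM overlapped. Of the 6 genes, 5 had a promoter window, in which TGACGTCA and TGACATCA were not found and TATAAA was found in 1, that of Il1rl1.

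**Figure D4:**
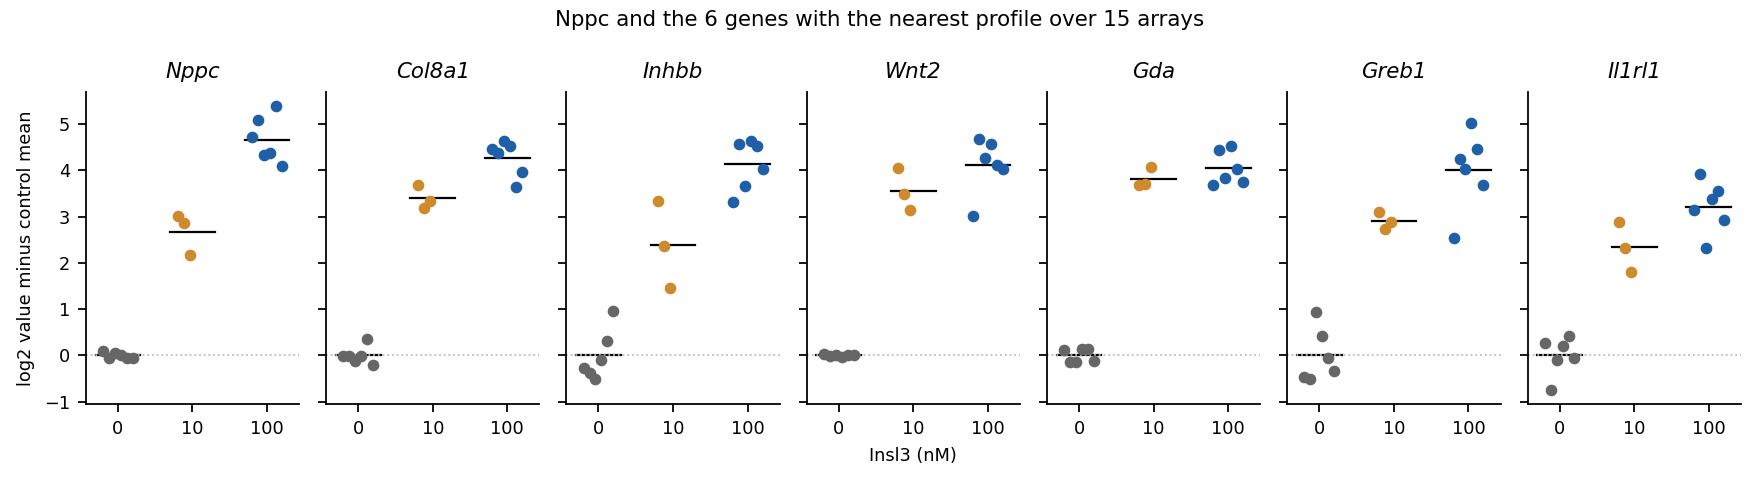
Log2 value minus the gene's control mean (vertical axis) by Insl3 dose in nM, for Nppc and the 6 genes nearest to it. Points are arrays and black bars group means. Nppc and Inhbb have the widest steps between 10 and 100 nM, 1.99 and 1.74.

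Some markers of other cell types differed between the groups as well, and more cells and more RNA per cell cannot be told apart. Over all features 6.51% were called higher and 4.39% lower at 100 nM, and 4.88% higher and 5.70% lower at 10 nM. The counts below are to be read beside these shares. Of 13 endothelial markers on the array 9 were tested and 3 rose at 100 nM (Cldn5, Kdr and Ramp2), with mean levels per array from 6.83 to 7.15 in controls, from 7.14 to 7.37 at 10 nM and from 7.20 to 7.76 at 100 nM. The other 6 were not called and differed in both directions, Emcn by -0.42, Esam by -0.37, Pecam1 by 0.01, Tie1 by 0.08, Egfl7 by 0.17 and Eng by 0.18, and the median of the 9 was 0.17. Cldn5 had the largest difference of the 9, 2.83, followed by Kdr at 0.94 and Ramp2 at 0.61. The endothelial markers Tek, Flt1, Vwf and Plvap stayed below the filter. Of 8 tested erythroid markers 6 fell at 100 nM, with mean levels from 7.68 to 9.94 in controls, from 7.54 to 8.95 at 10 nM and from 5.56 to 8.01 at 100 nM, and 5 of 12 leukocyte markers fell, with levels from 9.86 to 10.33, from 9.62 to 10.07 and from 9.16 to 9.91. Of 8 chondrocyte markers on the array 7 stayed below the filter. The 1 tested, Comp, rose 1.77-fold at 10 nM (adjusted p = 0.00913) and was not called at 100 nM (adjusted p = 0.427). Of 11 tested smooth muscle and pericyte markers 1 fell at 100 nM (Mylk, by 0.60), a share to be read beside the 4.39% called lower over all features. At 10 nM Mylk and Tagln fell, by 0.35 and 0.43, and Myh11, smooth muscle myosin, rose 6.29-fold (adjusted p = 0.0279). At 100 nM Myh11 differed by 1.81 and was not called (adjusted p = 0.0619). The list had mean levels from 6.72 to 7.14 in controls, from 7.18 to 7.50 at 10 nM and from 6.89 to 7.55 at 100 nM. Rxfp2, the Insl3 receptor gene, was not listed in the probe set table used here. Mesenchymal and gubernacular markers had mean levels from 12.33 to 12.65 in controls, from 12.44 to 12.51 at 10 nM and from 12.53 to 12.84 at 100 nM. Of 8 tested, Hoxa11 rose 1.24-fold at 100 nM (adjusted p = 0.0244) and Prrx1 fell 2.24-fold at 10 nM (adjusted p = 0.00874). A dimmer Twist1 probe set rose by 1.20 at 100 nM (adjusted p = 0.00460), and the brighter was not called. At 100 nM 1 of 6 tested skeletal muscle markers fell (Myod1, by 0.32). So did 1 of 5 tested Schwann cell and neuron markers (Mbp, by 0.28). With the erythroid level as a covariate the Nppc difference at 100 nM was 4.30 and that of Npr2 was 0.70 (adjusted p = 0.0236). The erythroid level itself was lower at 100 nM, so in every fit with this covariate it and the dose cannot be fully told apart. The part of the erythroid, endothelial and leukocyte levels in these results was not tested.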

How the data were processed

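RNA of cultured gubernacula was measured on 17 one-colour Affymetrix arrays, of which 15 were used. Per the submitters' processing notes the deposited values were made with GCRMA. The deposited log2 values were used unchanged, the base being inferred from their range. The GCRMA version, and which arrays were normalized jointly, are not given in the sources used here. Features above 2.28 (the 40th percentile) in at least 3 arrays were tested, 18938 of 31099. The 3 groups were fitted together with limma 3.58.1 in R 4.3.3 (lmFit and eBayes), 2-sided, with Benjamini-Hochberg adjustment at 0.05. The procedure was tested on simulated data with independent noise for each feature. Those data had no split between sets of replicates, so this does not vouch for calls under that split. The number of arrays limits the precision. For a gene with several probe sets the brightest stood for it, except among the genes nearest to Nppc, where the probe set with the nearest profile did. The members and lists were chosen with earlier results of these data known. Named genes included the members, pathway genes that were called, kinases, phosphodiesterases and tested cyclases of cyclic GMP, and the 6 genes nearest to Nppc. Alternatives covered filters, normalization, covariates, subsets of replicates and left-out arrays.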

Additional observations from a re-analysis of the deposited data

Results flagged for a closer look

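Nppc in the set-aside 10 nM arrays, which no comparison used, read 4.86 in replicate 4 and 8.03 in replicate 5, both above the highest control of 3.77. Replicate 4 lay below and replicate 5 above all 3 of the 10 nM arrays used. Replicate 5 also lay within the 100 nM range, from 7.76 to 9.07. The Nppc difference between 100 nM and 10 nM was 1.99, a difference between the effects of the doses. Npr2 in 100 nM replicate 1 read 8.99, apart from the other 5, the nearest of which read 9.51. Npr1 in control replicate 2 read 2.71, and the nearest control read 3.07. Of 18 groups of 6 arrays checked, 2 held such a value, and chance gives about 5% of groups.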

How the results depend on the processing

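The Nppc difference ran from 4.30 to 4.78 at 100 nM over the alternatives and left-out arrays that were run. It ran from 2.51 to 2.93 at 10 nM and from 1.70 to 2.16 between the doses. These fits reuse the values that chose the gene, so the ranges are a description and no test. The Npr2 difference at 100 nM was 0.42 without the filter, with the set-aside arrays and with only 2 groups fitted, and 0.34 within replicates 1, 2 and 6, and none of these passed. Leaving out 1 array gave 0.38 to 0.52 at 100 nM and 0.27 to 0.35 at 10 nM. Replicate numbers were not taken as pairs: deviations of same-numbered treated and control arrays correlated from -0.04 to 0.20, above 0.1 in 5 of 9 pairs and not in the other 4, and 2 of 9 treated arrays correlated best with the control of their own number. With the replicate block Npr2 at 100 nM was 0.42 (limma adjusted p = 0.0360), and the block brought Gucy1a1 (0.0340), Gucy1b1 (0.0178) and Pde9a (0.0469) past the threshold at 100 nM and Pde9a (0.0453) at 10 nM, while Ide at 100 nM (0.0703) and Pde2a at 10 nM (0.101) no longer passed.

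Called features at 100 nM against control, 2065 in all, numbered 994 with the set-aside arrays, 200 within replicates 1, 2 and 6 and 686 with the erythroid covariate. At 10 nM, from 2004, they numbered 559 within replicates 1, 2 and 6 and 1020 to 2495 with 1 array left out. Between the doses, from 271, they numbered 22 without the filter, 3 with 2 groups fitted, 429 with the replicate block, 531 with a term for the 2 sets of replicates, 134 within replicates 1, 2 and 6 and 3 to 619 with 1 array left out. Pathway genes called at 100 nM, 6 in all, numbered 3 with the set-aside arrays, 10 with that term and 2 within replicates 1, 2 and 6. At 10 nM, from 4, they numbered 2 within replicates 1, 2 and 6. The causes were not tested. Values near the floor of 2.11 understate differences.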

Other observations

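In the set-aside 10 nM replicates 4 and 5, Npr2 read 9.04 and 8.94, Npr1 read 3.32 and 3.07, and Npr3 read 2.11 on both.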
